A study of Sus scrofa with 3 samples.

Results

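HMGCS1, MVK, IDI1 and SQLE are 4 enzymes of the pathway that makes cholesterol. They were matched to the deposited read counts by Ensembl gene ID (ENSSSCG00000016872, ENSSSCG00000009931, ENSSSCG00000029066 and ENSSSCG00000005970). They are 4 of the 25322 gene IDs in the files, and all 4 were among the 13228 expressed IDs, which reached 1 CPM (counts scaled to a common library total) in at least 1 library. They were selected on their counts in these same 3 libraries, so their values are a description and carry no test. The samples were livers of male pigs at postnatal day 90, with 1 RNA-seq library for each of 3 breeds. The groups were an Enshi black pig, a Chinese wild boar and a Large White pig, and no treatment or mutation is labelled. The labels speak of 3 pigs and 3 libraries, read here as 1 animal per library, so breed, animal and library cannot be told apart and no difference below could be set against a spread between replicates.

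The mevalonate pathway turns acetyl-CoA into isoprene units, from which cells build sterols, dolichol, ubiquinone and the prenyl groups of proteins. HMGCS1, the cytosolic HMG-CoA synthase, makes HMG-CoA, the precursor of mevalonate. MVK, mevalonate kinase, adds the first phosphate to mevalonate, and IDI1, isopentenyl-diphosphate isomerase, interconverts both isoprene units so that FDPS can join them. SQLE, squalene epoxidase, makes the first oxygenated intermediate on the way to sterols and is a further control point of the pathway. In mammalian liver the genes of the pathway are known as targets of the sterol-sensing transcription factor SREBP-2 (SREBF2), which works when membrane sterol is low.

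The 4 genes did not share an order of libraries. HMGCS1 and SQLE were highest in Enshi black and lowest in Large White, and MVK and IDI1 were highest in Chinese wild boar and lowest in Enshi black. Of all expressed genes 20.7% had the order of HMGCS1 and SQLE, and 16.2% that of MVK and IDI1. Totals over genes were 20654571, 20215871 and 19982627 counts in Enshi black, Chinese wild boar and Large White, and 1 count was worth 0.0463 to 0.0512 CPM. Levels are given as CPM scaled with TMM factors, which correct for differences in library composition. A fold is the ratio of these levels between libraries, and the range after it is its 95% interval from an exact binomial calculation, which reflects the counting of reads alone. A fold is said to pass the size rule if its whole interval lay at or beyond 2 or at or under 0.5.

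HMGCS1 had 554 CPM in Enshi black (11962 counts), 355 CPM in Chinese wild boar (7026 counts) and 109 CPM in Large White (2123 counts). The Large White liver was thus the low one. The counting intervals were 544 to 564, 347 to 364 and 104 to 113 CPM in the same order of libraries. The level was 5.1-fold above Large White in Enshi black (4.87 to 5.34) and 3.27-fold above Large White in Chinese wild boar (3.11 to 3.43). Enshi black exceeded Chinese wild boar by 1.56-fold (1.52 to 1.61), which did not pass the size rule.

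MVK, the kinase further along, had 127 CPM in Enshi black (2750 counts), 487 CPM in Chinese wild boar (9640 counts) and 231 CPM in Large White (4518 counts). Here Chinese wild boar was the high library and Enshi black the low one. The counting intervals were 123 to 132 CPM in Enshi black, 478 to 497 in Chinese wild boar and 225 to 238 in Large White. The level in Enshi black was 1.81-fold lower than in Large White (1.73 to 1.9), which did not pass, and 3.82-fold lower than in Chinese wild boar (3.66 to 3.99), which passed. Chinese wild boar was 2.11-fold above Large White (2.03 to 2.18), a bound just inside the rule.

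IDI1 spread the most of the 4. It had 70 counts in Enshi black (3.24 CPM), 1531 in Chinese wild boar (77.4 CPM) and 531 in Large White (27.2 CPM). The Enshi black value was well above the floor of 3 counts, and its exact Poisson interval ran from 54.6 to 88.4 counts. Whether IDI1 reads of this library were assigned elsewhere or dropped in counting could not be checked from the count tables. IDI1 was 8.38-fold below Large White in Enshi black (6.52 to 10.9) and 23.9-fold lower than in Chinese wild boar (18.8 to 30.8). Chinese wild boar exceeded Large White by 2.85-fold (2.58 to 3.15).

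SQLE had 182 CPM in Enshi black (3921 counts), 163 CPM in Chinese wild boar (3233 counts) and 37.3 CPM in Large White (728 counts). Enshi black and Chinese wild boar lay close together and Large White stood below both. The level was 4.88-fold above Large White in Enshi black (4.5 to 5.29) and 4.39-fold above Large White in Chinese wild boar (4.05 to 4.76). Enshi black over Chinese wild boar gave 1.11 (1.06 to 1.17).

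**Figure D1:**
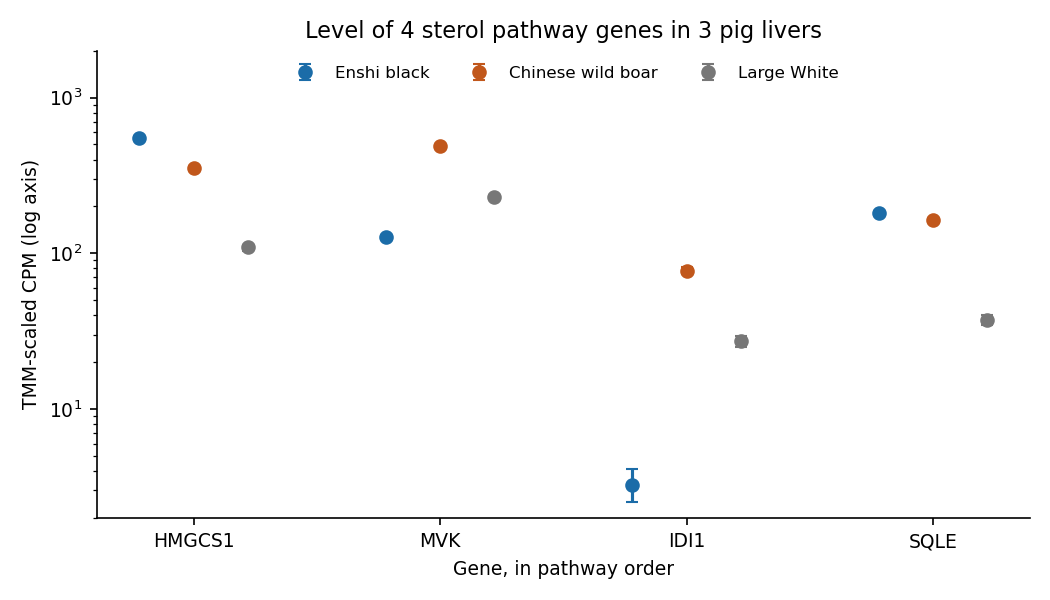
TMM-scaled CPM (log axis) of HMGCS1, MVK, IDI1 and SQLE in the Enshi black, Chinese wild boar and Large White liver libraries, 1 library each, with bars for the 95% Poisson interval of the count. HMGCS1 and SQLE are lowest in Large White (109 and 37.3 CPM), and MVK and IDI1 are lowest in Enshi black (127 and 3.24 CPM).

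Between Enshi black and Large White, HMGCS1 and SQLE passed the size rule as higher and IDI1 as lower, 3 of 4, where 13.1% of all expressed genes passed (4.69% as higher and 8.39% as lower). Between Chinese wild boar and Large White all 4 passed as higher, where 6.7% of expressed genes passed (2.96% as higher and 3.74% as lower). Between Enshi black and Chinese wild boar MVK and IDI1 passed as lower, 2 of 4, where 11.1% of expressed genes passed (4.03% as higher and 7.1% as lower). The comparisons share libraries pairwise, and the same values guided the choice of the genes, so nothing is read from these counts. If animals of a breed were assumed to vary with a coefficient of variation of 0.4, IDI1 alone of the 4 would pass in both comparisons of Enshi black, and none would in Chinese wild boar against Large White.

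Successive steps were compared through the ratio of 2 genes' counts within a library, set against the same ratio in another library, so that gene length and library scaling cancel. From HMGCS1 to MVK the balance tilted away from MVK in Enshi black, with 0.23 MVK counts per HMGCS1 count, against 2.13 in Large White. That is a 9.26-fold lower ratio (8.66 to 9.9, exact conditional interval). In Chinese wild boar the ratio was 1.37, which is 1.55-fold below Large White (1.46 to 1.65). Enshi black lay 5.97-fold below Chinese wild boar for this step (5.67 to 6.29).

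From MVK to IDI1 the balance tilted again in Enshi black. It held 0.0255 IDI1 counts per MVK count, against 0.118 in Large White, a 4.62-fold lower ratio (3.57 to 6.04). Chinese wild boar had 0.159 for this step, which was 1.35-fold above Large White (1.22 to 1.5). The ratio in Enshi black was 6.24-fold lower than in Chinese wild boar (4.89 to 8.08). The 2 shifts ran the same way in Enshi black, with MVK low against HMGCS1 and IDI1 low against MVK.

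From IDI1 to SQLE the direction turned. Enshi black held 56 SQLE counts per IDI1 count, against 1.37 in Large White, a 40.9-fold higher ratio (31.3 to 53.8). The ratio of 2.11 in Chinese wild boar was 1.54-fold above Large White (1.35 to 1.75). Enshi black exceeded Chinese wild boar 26.5-fold at this step (20.8 to 34.4). The ratios of Chinese wild boar to Large White thus stayed between 0.645 and 1.54 over the 3 steps, and those with Enshi black on top ran from 0.108 to 40.9.

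Neighbours of the 4 genes in the pathway were compared in the same way; PMVK, MVD and EBP had no matched gene ID and were not analysed here. On the far side of IDI1, FDPS, the synthase that builds farnesyl diphosphate, had 420.5, 400.0 and 317 CPM in Enshi black, Chinese wild boar and Large White. FDPS per IDI1 count was 11.1-fold above Large White in Enshi black (8.62 to 14.5), and in Chinese wild boar it was 2.26-fold lower than in Large White (2.03 to 2.51).

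Upstream of HMGCS1, ACAT2, which joins acetyl-CoA units in the cytosol, had 104 CPM in Enshi black, 186 CPM in Chinese wild boar and 60 CPM in Large White. HMGCS1 per ACAT2 count was 2.93-fold above Large White in Enshi black (2.69 to 3.2). Between Chinese wild boar and Large White that ratio was 1.05 (0.968 to 1.14), so the change in both genes could not be told apart at this depth. Around SQLE, the squalene synthase FDFT1 before it had 475, 319 and 157 CPM and the cyclase LSS after it 271, 289 and 212 CPM in Enshi black, Chinese wild boar and Large White. SQLE per FDFT1 count was 1.62-fold above Large White in Enshi black (1.48 to 1.77) and 2.16-fold above Large White in Chinese wild boar (1.97 to 2.37). LSS per SQLE count was 3.81-fold below Large White in Enshi black (3.48 to 4.16) and 3.21-fold below Large White in Chinese wild boar (2.93 to 3.51). Against Large White, the fold of SQLE was thus larger than that of either neighbour in both other breeds.

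**Figure D2:**
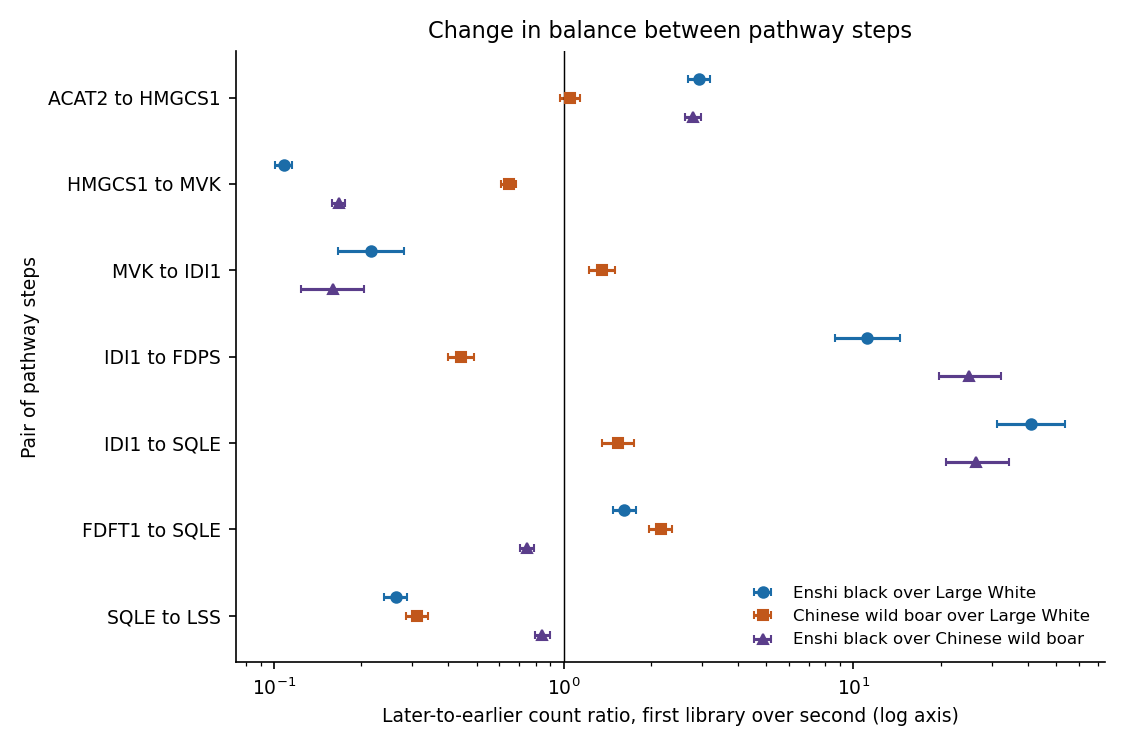
Ratio of the later to the earlier gene's counts in the first-named library over the same ratio in the second (log axis), for 7 pairs of pathway steps, with 95% exact conditional intervals. The pairs that enter or leave MVK and IDI1 lie farthest from 1 when Enshi black is on top, from 0.108 for HMGCS1 to MVK up to 40.9 for IDI1 to SQLE.

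Among the 15 enzymes of sterol synthesis described here, from ACAT2 to DHCR7, the other 11 gave 2 that passed as higher when Enshi black was set against Large White and none as lower, where 4.69% and 8.39% of all expressed genes passed in those directions. They were FDFT1 at 3.02-fold (2.9 to 3.14) and the desaturase SC5D at 2.68-fold (2.51 to 2.86). The median log2 fold over the 11 was 0.49, beside 0.01 for all expressed genes. The 1 of the 11 with a fold below 1 was the late enzyme TM7SF2 at 0.973, which lay above 1 with total counts as the scaling.

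In Chinese wild boar against Large White, 3 of the 11 passed as higher and none as lower (2.96% and 3.74% of all expressed genes), with a median log2 fold of 0.93 beside 0.00 for all expressed genes. ACAT2 was 3.11-fold (2.91 to 3.32), the reductase HSD17B7 2.56-fold (2.26 to 2.9) and SC5D 2.3-fold (2.15 to 2.46) higher. DHCR7, a late reductase of the pathway, gave 1 (0.966 to 1.04), so a difference was not detectable at this depth. None of the 11 passed between Enshi black and Chinese wild boar, where 11.1% of all expressed genes passed. The median there was -0.09 beside 0.01, with folds from 0.548 for HSD17B7 to 1.49 for FDFT1.

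**Figure D3:**
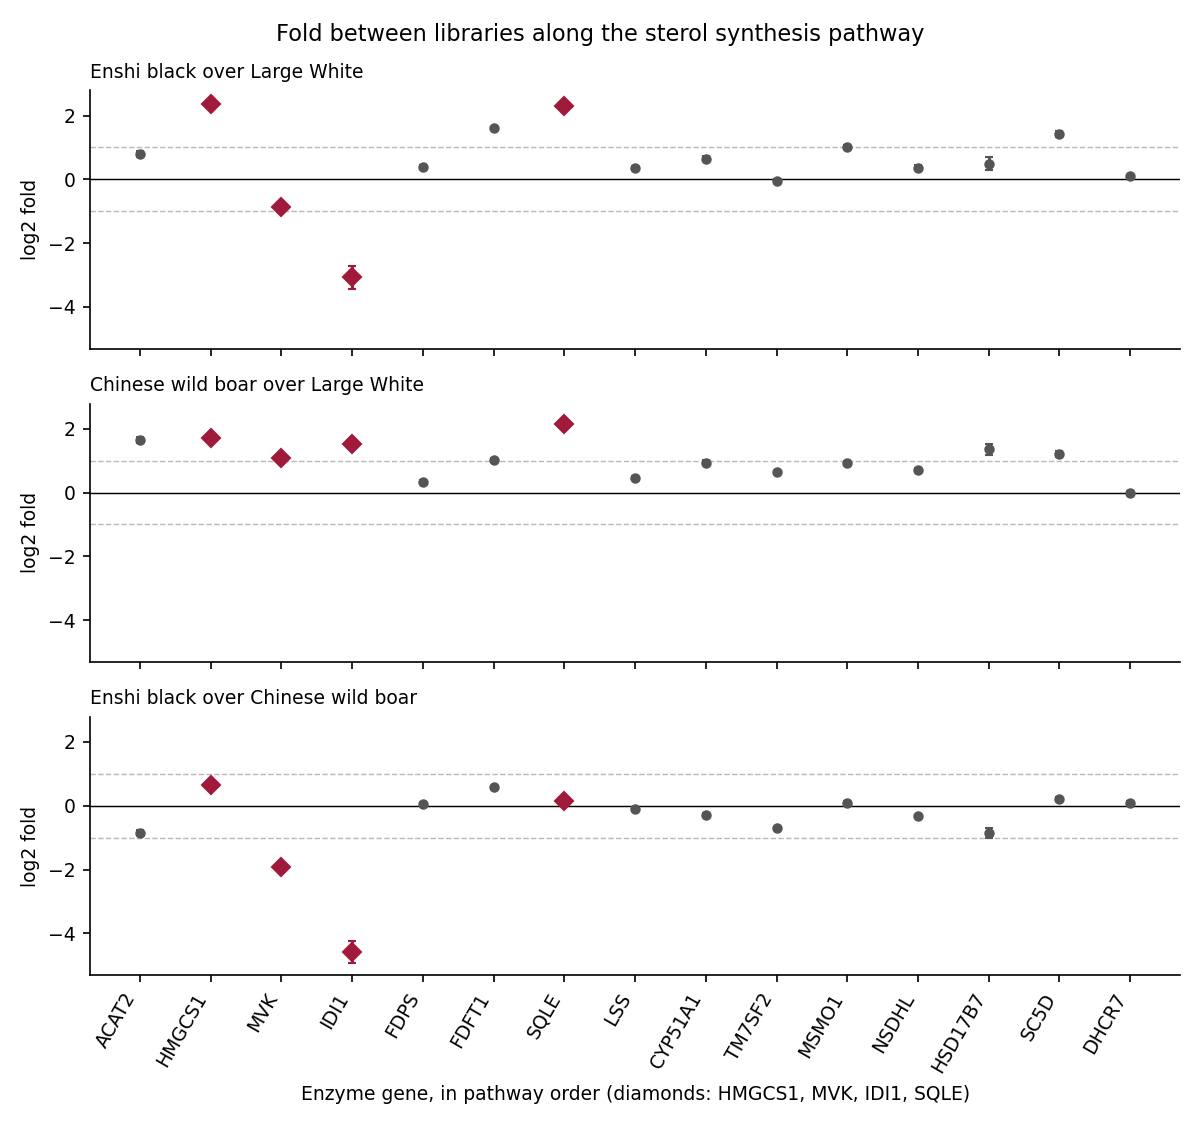
Log2 fold of each of 15 sterol synthesis enzymes between 2 libraries, in pathway order, with 95% exact intervals; dashed lines mark a 2-fold difference and diamonds mark HMGCS1, MVK, IDI1 and SQLE. In the panels with Enshi black on top MVK and IDI1 drop below the other enzymes (-0.86 and -3.07 against Large White), and in the panel of Chinese wild boar over Large White every enzyme lies between 0.00 and 2.13.

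**Figure D4:**
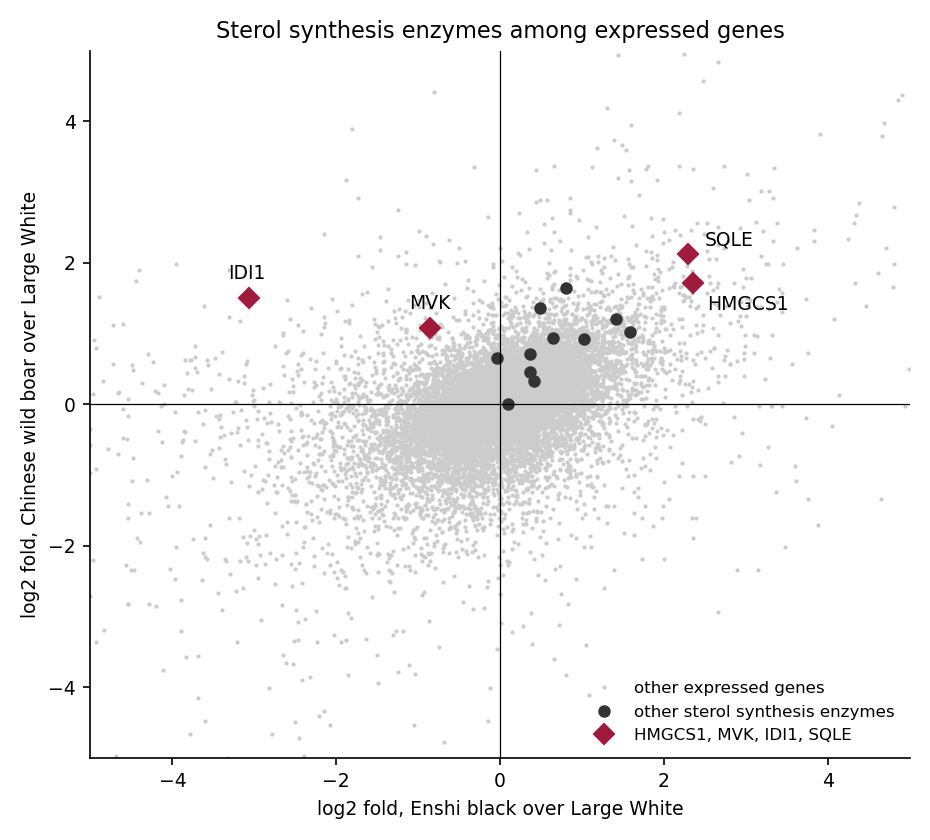
Log2 fold of Enshi black over Large White (horizontal) against Chinese wild boar over Large White (vertical) for expressed genes with counts in every library; both axes share the Large White library, and 115 of 13022 genes lie outside the axes. HMGCS1 and SQLE lie to the upper right, and MVK and IDI1 lie to the upper left.

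Among regulators of the pathway, SREBF2 had 211 CPM in Enshi black, 305 CPM in Chinese wild boar and 201 CPM in Large White, and INSIG1, which holds the SREBP escort SCAP in the endoplasmic reticulum, had 388, 509 and 221 CPM in the same libraries. Of 20 genes of sterol regulation and uptake 14 were matched and 13 expressed. None of these passed between Enshi black and Large White, where 13.1% of all expressed genes passed. The median log2 fold was -0.06, and 0.03 with total counts as the scaling. None passed between Enshi black and Chinese wild boar either (median -0.17), where 11.1% of all expressed genes passed. Between Chinese wild boar and Large White, INSIG1 passed as higher at 2.3-fold (2.22 to 2.39), as did 2.96% of all expressed genes, and the list median was 0.12. SREBF2 gave 1.05 for Enshi black and 1.52 for Chinese wild boar over Large White, without passing.

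None of 10 expressed genes of the dolichol, ubiquinone and prenylation branches passed in any comparison, with folds between 0.681 and 1.92. Of all expressed genes 13.1% passed for Enshi black against Large White and 6.7% for Chinese wild boar against Large White. For Enshi black against Chinese wild boar 11.1% passed. In a list this short, none passing does not set the genes apart from all expressed genes. Examples are NUS1, a subunit of the dolichol-making prenyltransferase, with 47.8, 36.5 and 30.7 CPM, and COQ2, which attaches the ubiquinone tail, with 12, 13.7 and 9.67 CPM in Enshi black, Chinese wild boar and Large White. Of 12 genes of sterol esterification and efflux none passed either. The lowest fold there was that of LCAT, the plasma cholesterol esterifying enzyme, between Enshi black (254 CPM) and Chinese wild boar (518 CPM), at 0.491 (0.475 to 0.507).

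Of 4 other expressed enzymes of ketone body metabolism and its links to sterol synthesis, 2 were clearly highest in Chinese wild boar. AACS, which activates acetoacetate in the cytosol and so feeds sterol synthesis, had 72.4 CPM in Enshi black, 168 CPM in Chinese wild boar and 48.7 CPM in Large White. The mitochondrial ketone body enzyme BDH1 had 27.3 CPM in Enshi black, 223 CPM in Chinese wild boar and 97.8 CPM in Large White. BDH1 had the same order of libraries as MVK and IDI1, an order found in 16.2% of all expressed genes. Of the 4, AACS and BDH1 passed as higher when Chinese wild boar was set against Large White, the same 2 passed as lower in Enshi black than in Chinese wild boar, and BDH1 passed as lower when Enshi black was set against Large White. Over all expressed genes the shares in these directions were 2.96%, 7.1% and 8.39%.

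Among enzymes that oxidise sterols, CYP27A1 had 7.14, 16.6 and 23.6 CPM in Enshi black, Chinese wild boar and Large White. CYP7B1 had 14.2, 34 and 40.8 CPM in the same libraries. Both passed as lower when Enshi black was set against Large White, at 0.302 (0.25 to 0.364) and 0.347 (0.303 to 0.397). CYP7A1, which opens the main route to bile acids, had 71.8 CPM in Enshi black, 20.3 CPM in Chinese wild boar and 116 CPM in Large White. In the same list of 7 expressed genes FAXDC2 also passed as lower when Enshi black was set against Large White, at 0.366 (0.268 to 0.493). Against Large White, CYP7A1 alone of the 7 passed in Chinese wild boar, as lower at 0.175 (0.157 to 0.195). Between Enshi black and Chinese wild boar CYP7A1 passed as higher and FAXDC2 and CYP7B1 as lower. These 3 lower, 1 lower, and 1 higher with 2 lower stand beside 8.39%, 3.74%, and 4.03% with 7.1% of all expressed genes.

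Likeness of pattern was measured as the Euclidean distance between log2 levels centred over the 3 libraries, among 5471 named genes of at least 10 CPM on average. With only 3 libraries it is a weak description. The genes nearest to HMGCS1 were FADS2 (distance 0.160), FADS1 (0.247), ENPP1 (0.306), COL1A2 (0.371) and SQLE (0.376). FADS1 and FADS2 are desaturases of polyunsaturated fatty acids. The nearest to SQLE were MBL2 (0.070), ALDH18A1 (0.206), FADS2 (0.240), CBR3 (0.248) and FADS1 (0.254).

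MVK lay nearest to STK24 (0.056), KLF9 (0.104), SERINC2 (0.117), IMPA2 (0.119) and KIF12 (0.154), none of them in the sterol lists. IDI1 had no close match, since its nearest gene, KLHDC10, lay at 0.627, followed by the ribosomal protein genes RPS21 (0.752) and RPS23 (0.944), TSPAN6 (0.994) and PAQR7 (1.018). Ribosomal protein genes have many near-identical copies, so their counts are uncertain. HMGCS1 and SQLE were 0.38 apart, HMGCS1 and MVK 2.40 and HMGCS1 and IDI1 4.34.

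Hepatocyte markers were abundant, summing to 97423, 80111 and 54808 CPM in Enshi black, Chinese wild boar and Large White. APOA1, 1 of the 7, was at or under 3 counts in each. Whether APOA1 reads were assigned elsewhere or dropped in counting could not be checked. ALB carried most of these sums (66508, 53648 and 25310.1 CPM), while TTR ran the other way (2543, 3497 and 4107 CPM), and the median log2 fold of the list was 0.09 for Enshi black and 0.03 for Chinese wild boar over Large White. The adrenal and gonad markers CYP17A1 and CYP11A1, signs of another tissue with high sterol demand, had at most 1 count in any library. In bulk tissue, fewer cells of a type and less RNA per cell cannot be told apart.

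Markers of other cell types also differed between the libraries. The 6 matched of 7 stellate cell and fibroblast markers summed to 1003, 507 and 292 CPM in Enshi black, Chinese wild boar and Large White. This is the order of HMGCS1 and SQLE, and no marker was at the floor in all 3. COL3A1 carried most of these sums (837, 383 and 232 CPM). Of the 5 expressed markers 4 passed as higher for Enshi black against Large White, where 4.69% of all expressed genes did. PDGFRB did not pass and had another order (15.9, 18.6 and 18 CPM). The 3 erythroid markers summed to 44.9, 186 and 106 CPM, which is the order of MVK and IDI1 but rests on HBB (36.5, 182 and 102 CPM), since ALAS2 was highest in Enshi black (7.74, 3.44 and 2.92 CPM). Of 5 macrophage markers, which summed to 1500.0, 1728 and 1912 CPM, CSF1R was 7.12-fold and MARCO 3.97-fold below Large White in Enshi black. The other macrophage markers did not pass there, with folds of 0.76 for CD14, 0.88 for CD68 and 1.05 for C1QA. Of all expressed genes 8.39% passed as lower in that comparison. All 3 matched B cell markers passed as higher for Enshi black against Large White, beside the same 4.69% of all expressed genes. Their folds ran from 3.74 to 5.48, and their sums were 11, 1.72 and 2.35 CPM. Of 4 T and NK cell markers CD3D and CD8A passed as lower for Chinese wild boar against Large White, CD8A by 7.45-fold. Of all expressed genes 3.74% did so, and the 4 markers summed to 83.3, 33.8 and 84.1 CPM. The Enshi black library also held 47 gene IDs with at most 3 counts that had 5 CPM or more in each of the others, against 1 in Chinese wild boar and 1 in Large White. IDI1 was not among the 47, and the part of these features in the values above was not tested.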

How the data were processed

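Liver RNA was sequenced in paired-end mode on an Illumina HiSeq, per the labels' protocols. Each deposited file holds raw, whole-number read counts per Ensembl gene ID for 1 library. Build Sscrofa10.2, edgeR 3.16.3, HTSeq 0.6.1 and TopHat2 2.1.0 are listed in the submitters' processing notes. Strand setting, annotation release and handling of reads with several alignments were not given in the sources used here, so near-identical copies and overlapping genes are uncertain. The 5 rows that name no gene were left out; reads with no feature made up 18.9% to 22% of reads and ambiguous ones 1.89% to 2.49%.

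Genes with at least 1 CPM by total counts in at least 1 library were kept and scaled with TMM (edgeR 4.0.16 in R 4.3.3; factors 1.04, 0.979 and 0.978 for Enshi black, Chinese wild boar and Large White). Folds carry exact conditional binomial intervals and step ratios exact conditional odds ratio intervals (scipy 1.17.1). With 1 library per breed no test across animals was run. Molecular identifiers are not described, and the intervals and floors hold for counting error alone. The fold script was tested on simulated counts. Alternatives were DESeq2 1.42.0 size factors, total counts, other bounds, intervals and filters, an assumed variation between animals, and a correction for gene span. Spans came from a RefSeq gene table of Sscrofa11.1, used for spans and neighbours only. The genes and lists were chosen with earlier results of these data known. The text names the 4 genes, genes of the sterol synthesis and regulation lists, up to 4 that passed per other list, and the 5 genes nearest in pattern to each of the 4. LCAT, NUS1 and COQ2, which did not pass, were picked once their values had been seen. Some cell type markers that did not pass are also named, among them TTR, ALAS2, PDGFRB, CD14, CD68 and C1QA. A few listed genes are not reported here, and no list count or median includes them.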

Additional observations from a re-analysis of the deposited data

How the results depend on the processing

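No paired analysis was possible because each breed has 1 library, and for the same reason no library could be left out of a comparison. The folds of the 4 genes stayed within their counting intervals with DESeq2 size factors. Total counts moved the median over all expressed genes (log2 fold) to 0.106 for Enshi black against Large White and 0.105 against Chinese wild boar, beside 0.011 and 0.010 with TMM. With total counts HMGCS1 was 5.45 and MVK 0.589 for Enshi black against Large White. HMGCS1 was 1.67, MVK 0.279 and SQLE 1.19 for Enshi black against Chinese wild boar. The synthesis list median became 0.58 and 0.00 and the regulation list median 0.03 and -0.08 in these comparisons. With the median of genes of similar span subtracted, HMGCS1 was 5.35 and MVK 0.506 for Enshi black against Large White, and HMGCS1 1.67 for Enshi black against Chinese wild boar; IDI1 was not analysed for span. Adding 0.5 to every count left all step ratios inside their intervals.

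The counts that pass depend on the bound and on the error assumed. If animals of a breed are taken to vary with a coefficient of variation of 0.4, 1 of the 4 genes passed for Enshi black against Large White (IDI1), 0 when Chinese wild boar was set against Large White, and 1 (IDI1) when Enshi black was set against Chinese wild boar. The synthesis list then gave 1, 0 and 1, the regulation list 0 in Chinese wild boar against Large White, while all expressed genes gave 532, 178 and 476. At 0.2, SQLE was the 1 of the 4 to pass for Chinese wild boar against Large White, the synthesis and regulation lists gave 1 and 0 there, the synthesis list gave 3 for Enshi black against Large White, and all genes 938, 388 and 825 over the 3 comparisons. A bound of 4 left 1 of the 4 (SQLE) for Chinese wild boar against Large White, with 1 in the synthesis list and 0 in the regulation list, and 3 in the synthesis list when Enshi black was set against Large White. It left IDI1, 1 of the 4 and 1 in the synthesis list, when Enshi black was set against Chinese wild boar, and 594, 201 and 507 of all genes. A bound of 1.5 gave 8, 12 and 6 in the synthesis list over the 3 comparisons, 3, 3 and 2 in the regulation list, and 3503, 2120 and 2976 of all genes. A wider interval gave 585 of all genes for Chinese wild boar against Large White, where MVK no longer passed, and a filter of 10 CPM gave 990, 546 and 820.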

Other observations

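The genes next to HMGCS1, MVK and SQLE in the RefSeq order of Sscrofa11.1 were looked up after the data were seen; the neighbours of IDI1 were not analysed here. MMAB, an enzyme of vitamin B12 metabolism, is the gene next to MVK, and in human and mouse both genes lie head to head and share a promoter. MMAB had 47.7 CPM in Enshi black, 106 CPM in Chinese wild boar and 51.3 CPM in Large White. Like MVK it was highest in Chinese wild boar, at 2.07-fold over Large White (1.92 to 2.23, not passing the size rule), and it passed as lower in Enshi black against Chinese wild boar at 0.449 (0.416 to 0.484). Enshi black over Large White gave 0.929 (0.851 to 1.01), a difference not detectable at this depth, where MVK gave 0.551 (0.525 to 0.578). On the other side of MVK, FAM222A had 7.09, 5.26 and 3.53 CPM in Enshi black, Chinese wild boar and Large White, and no fold of it passed. The neighbours of HMGCS1, NIM1K and CCL28, had at most 6 counts in any library. WASHC5, next to SQLE, had 23.8, 13.4 and 12.8 CPM in the same libraries, and MTSS1, 2 genes away on its other side, had 52.6, 98.6 and 147 CPM. MTSS1 ran opposite to SQLE, passing as lower in Enshi black against Large White at 0.357 (0.333 to 0.383). For WASHC5, Chinese wild boar over Large White was 1.05 (0.877 to 1.25), where SQLE gave 4.39.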
